A study of Mus musculus with 6 samples.

Results

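Very long long non-coding RNA (lncRNA), here lncRNA transcripts of 10000 bases or more, were described in mature sperm and in testes of mice. The members were chosen by identifier and length alone. They were the transcripts with a NONCODE identifier (NONMMUT, known lncRNA) or an identifier of the study's own assembly (LTCONS, predicted lncRNA) and a listed length of at least 10000 bases. These were 263 of the 52257 lncRNA transcripts listed in any sample, or 0.503%. The comparison asked whether long RNA was kept in sperm as in testes, and set these transcripts against the 19874 lncRNA under 1000 bases, called short lncRNA below.

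The labels give the inbred strain C57BL/6 and an age of 3 to 5 months for all mice and name no allele and no treatment, while the methods of the study name the substrain C57BL/6J and an age range that starts somewhat lower. Sperm were pooled over several mice from the vas deferens and the caudal epididymis, gave 4 samples and were treated to lyse somatic cells. Testes of these mice gave 2 samples of whole tissue, which holds germ cells of every stage beside Sertoli, Leydig and other somatic cells. RNA was depleted of rRNA, cut into short fragments and sequenced with strand information, so a count on a model of 10000 bases shows fragments that mapped to it and does not show an intact molecule. In the comparisons below sperm replicates 2, 3 and 4 were set against both testes samples, because the study left out sperm replicate 1, whose values are printed beside them.

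LncRNA of this size are rare among annotated transcripts. The best known ones, such as Xist, Airn and Kcnq1ot1, stay in the nucleus near the gene that makes them and silence chromatin there, and several of them are little spliced. During the last steps of sperm formation transcription stops, histones give way to protamines and most cytoplasm is shed, and the RNA that remains in sperm is known to be largely fragmented. Which of the members, if any, corresponds to such a named RNA is not known here, since the tables give an identifier and a length and neither a name nor a position.

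The 263 members came from 213 lncRNA genes, of which 176 held 1 member, 29 held 2 and 8 held 3 or more. Their lengths ran from 10011 to 101536 bases with a median of 12648. Most of them, 202, were shorter than 15000 bases, 51 were longer than that and shorter than 30000, and 10 had 30000 bases or more. Of the members 127 were known and 136 predicted, so that 51.7% rested on the study's own assembly, against 20.6% of the short lncRNA. A total of 148 members shared their gene with another listed lncRNA transcript, so reads may have been divided between them by the counting program. Nearest to the length limit from above were LTCONS_00047486 with 10011 bases and LTCONS_00014004 and LTCONS_00170095 with 10023 bases each. LTCONS_00047486 reached an FPKM (fragments scaled for the length of the transcript and for sequencing depth) of 0.18 in testes replicate 1 and was listed nowhere else, LTCONS_00014004 had 1.65 and 0.96 in testes, and LTCONS_00170095 had 1.18 in sperm replicate 4 with 0.05 and 0.16 in testes. Just below the limit were NONMMUT130885.1 with 9997, LTCONS_00118199 with 9988 and NONMMUT125431.1 with 9976 bases, of which only LTCONS_00118199 was listed in sperm, at an FPKM of 4.1 in replicate 4 against 7.04 and 3.93 in testes.

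The summed estimated counts, which are the depth of a sample, ran from 366455 to 1058017 over the 4 sperm samples and were 2866856 and 2606086 in testes, so every testes sample was deeper than every sperm sample. A share of 3 counts, taken as the lowest that can be seen, lay between 2.84 and 8.19 ppm in sperm (ppm, counts per 1000000 counts of the sample) and was 1.05 and 1.15 ppm in testes. The marker check of the labels gave counts for 9 of 12 sperm and spermatid genes in sperm replicate 2 and for 4 or 5 in the other sperm samples, against 11 in each testes sample, with summed levels of 172 to 387 ppm in sperm and of 378 and 394 ppm in testes. Prm2, a protamine, had 45 to 148 counts in the sperm samples against 465 and 220 in the deeper testes samples. Prm1 had 0 to 6 against 123 and 116 in testes. Tssk6 had 7 to 79 in sperm against 24 and 29. Tnp1, Akap4, Smcp, Gapdhs and Oaz3 had 0 to 3 counts in each sperm sample against 0 to 98 in testes. Odf1 and Spata3 were at 0 in every sperm sample. None of 7 meiotic and early germ cell genes had a count in any sperm sample, against 5 of 7 in each testes sample. Of 8 Sertoli and Leydig cell genes 0, 4, 1 and 2 were seen in sperm replicates 1 to 4, at 0 to 109 ppm, against 7 in both testes samples at 68.5 and 71.9 ppm. The value of 109 ppm in sperm replicate 3 came from 40 counts of Star, which imports cholesterol for steroid synthesis. Of 6 epididymal genes only Adam7 was seen in sperm, with 5 counts in replicate 4, and of 4 leukocyte genes only Cd4, with 2 counts in replicate 2, while Cdh1 and Ptprc were at 0 in all 6 samples. The part of such cells in the results below was not tested.

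Very long lncRNA were detected in every sperm sample and took about the same share of the counts in each. In sperm replicates 1 to 4 they summed to 4182, 10718, 3633 and 4981 estimated counts, and to 35861 and 27572 in the testes samples. As a share of all counts this was 0.985%, 1.01%, 0.991% and 0.980% in sperm, and 1.25% and 1.06% in testes. Every sperm sample thus lay below both testes samples. The Wilson 95% intervals, which cover counting error only, were 0.994 to 1.03% in sperm replicate 2 and 1.05 to 1.07% in testes replicate 2, the closest pair. Sperm replicates 2 to 4 averaged 0.995% ± 0.0168 (SD, n = 3) and the testes samples 1.15% ± 0.136 (SD, n = 2), a ratio of 0.862, and the exact permutation test (two-sided) gave p = 0.2. That is the smallest p that 3 against 2 samples can give, and the value adjusted over the 9 tests of this kind was 0.225. The groups differed by -0.160 percentage points, close in size to the SD between the testes samples. In bulk RNA a lower share can come from fewer cells of a type or from less RNA per cell, and these cannot be told apart.

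The share of the short lncRNA differed the other way. It was 13.8%, 18.4%, 17.2% and 19.0% in sperm replicates 1 to 4, and 16.5% in each testes sample. Sperm replicates 2 to 4 lay above both testes samples and replicate 1 below them. The means were 18.2% ± 0.903 (SD, n = 3) and 16.5% ± 0.0158 (SD, n = 2), a ratio of 1.10 with an exact permutation p of 0.2 (adjusted 0.225). The log2 ratio of very long to short lncRNA counts was therefore lower in these sperm samples, at -4.18, -4.12 and -4.28 in replicates 2, 3 and 4 against -3.72 and -3.97 in testes, while replicate 1 stood at -3.81, between the testes samples. The difference of the means, -4.19 ± 0.0799 (SD, n = 3) against -3.84 ± 0.172 (SD, n = 2), was -0.35 with an exact permutation p of 0.2 (adjusted 0.225), and with sperm replicate 1 included the groups overlapped.

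The size and direction of this ratio depended on single abundant genes on both sides, first on 1 short lncRNA gene. The 6 transcripts under 1000 bases of gene NONMMUG018329.2, which lists 14 transcripts in all, held 29.5%, 24.6% and 30.6% of the short lncRNA counts in sperm replicates 2, 3 and 4. They held 2.24% in sperm replicate 1 and 0.521% and 0.389% in testes. With the counts of this gene taken out, the log2 ratio was -3.78, -3.68, -3.71 and -3.75 in sperm replicates 1 to 4 against -3.72 and -3.96 in testes. The difference of the means then turned to 0.13, with the higher mean in sperm, and the groups overlapped. The short lncRNA share without this gene was 13.9 to 14.5% over the 4 sperm samples and 16.7% in both testes samples, a ratio of 0.844. The very long share without it was 1.01%, 1.10%, 1.06% and 1.08% against 1.27% and 1.07%, so sperm replicates 2 and 4 no longer lay below both testes samples. On the other side, leaving out the leading very long member of sperm, NONMMUT006494.2, widened the difference from -0.35 to -0.66. This member was picked as the highest of sperm and was lower in testes, so the direction of that change follows from its own values. The most abundant member of testes, LTCONS_00144108, was not left out in the same way. With NONMMUG018329.2 and NONMMUT006494.2 both left out the log2 ratio was -4.19, -4.06, -3.99 and -4.10 in sperm replicates 1 to 4 against -3.75 and -3.99 in testes, a difference of -0.18.

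**Figure D1:**
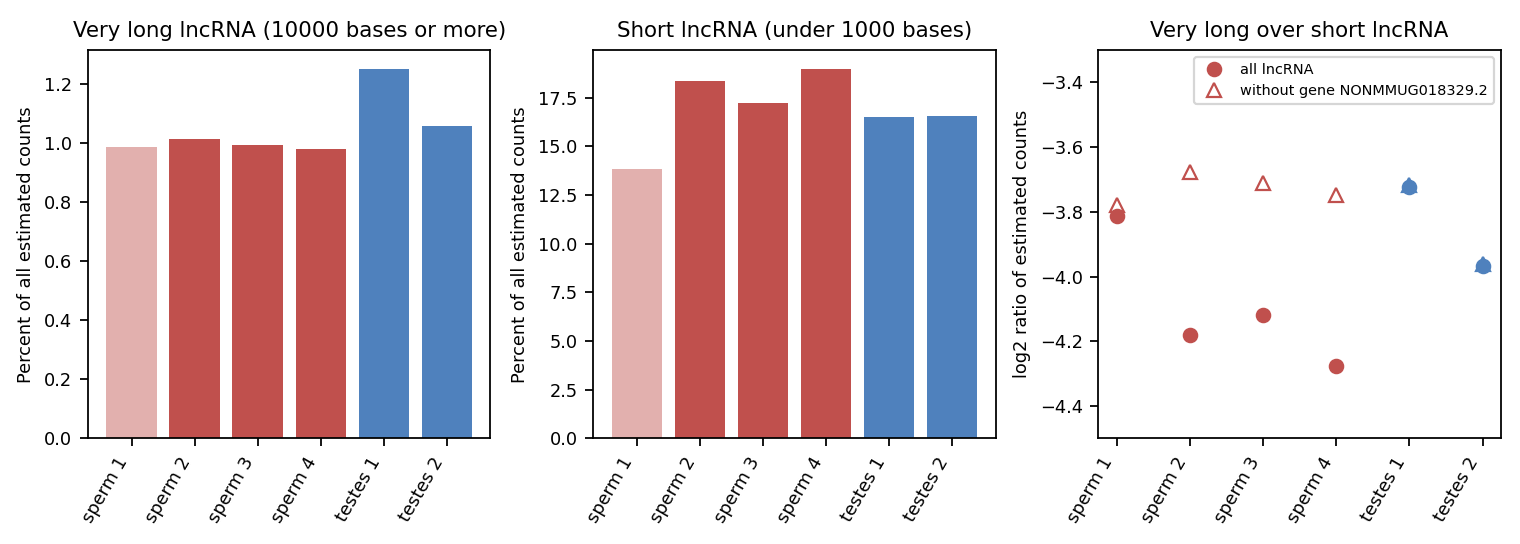
Percent of all estimated counts in very long lncRNA (left) and short lncRNA (middle) and the log2 ratio of both sums (right), 1 bar or point per sample, sperm in red (replicate 1 pale, as it stays out of the tests) and testes in blue; triangles give the ratio without gene NONMMUG018329.2. The very long share is 0.980 to 1.01% in sperm and 1.06% and 1.25% in testes, and the 3 lowest log2 ratios, -4.28 to -4.12, move to between -3.75 and -3.68 without the gene.

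The classes between these lengths did not part the groups. LncRNA from 1000 to below 3000 bases took 46.1% ± 2.24 of the counts in sperm (SD, n = 3) and 45.2% ± 0.400 in testes (SD, n = 2), and those from 3000 to below 10000 bases took 23.5% ± 0.936 and 23.3% ± 0.515. Within the very long lncRNA the share was compared by length. Members under 15000 bases held 0.648% ± 0.0515 in sperm against 0.641% ± 0.0508, a ratio of 1.01, and the groups overlapped. Members from 15000 to below 30000 bases held 0.303% ± 0.0331 against 0.418% ± 0.0278, a ratio of 0.726. Those of 30000 bases or more held 0.0436% ± 0.0103 against 0.0958% ± 0.0578, a ratio of 0.455, from 0.0335 to 0.0542% over the 4 sperm samples and 0.137% and 0.0549% in testes. The value for the shortest of these groups rested on 1 member, NONMMUT006494.2 of 12080 bases. Without it the members under 15000 bases held 0.441% ± 0.0417 in sperm against 0.619% ± 0.0465, a ratio of 0.712, beside 0.727 from 15000 to below 30000 bases. NONMMUT006494.2 was picked for its level in sperm and was lower in testes, so the fall of this ratio follows from its own values. In both upper groups every sperm sample tested lay below both testes samples, but for the longest group the gap between sperm replicate 4 and testes replicate 2 was 0.0542% against 0.0549%. These 3 groups were described and not tested on their own.

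Very long coding RNA was set beside these values. RefSeq mRNA of 10000 bases or more, 282 transcripts, held 0.268%, 0.275%, 0.191% and 0.266% of the counts in sperm replicates 1 to 4 and 0.355% and 0.326% in the testes. Their mean was 0.244% ± 0.0460 (SD, n = 3) against 0.341% ± 0.0205 (SD, n = 2), a ratio of 0.717 with an exact permutation p of 0.2 (adjusted 0.225). RefSeq mRNA under 1000 bases, 1455 transcripts, held 0.245% ± 0.0418 in sperm against 0.383% ± 0.0139, a ratio of 0.641, and the log2 ratio of very long to short mRNA was -0.01 ± 0.0340 in sperm and -0.17 ± 0.140 in testes. Relative to short mRNA, very long mRNA had the higher mean in sperm, with a difference of 0.16 and an exact permutation p of 0.2 (adjusted 0.225).

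Fewer very long lncRNA were listed in each sperm sample than in testes. The tables list a transcript only where its FPKM is above 0, and 58, 142, 50 and 87 members were listed in sperm replicates 1 to 4 against 210 and 171 in testes. With at least 10 estimated counts they were 31, 65, 31 and 37 against 122 and 95. The mean number listed was 93 ± 46.3 in sperm replicates 2 to 4 (SD, n = 3) and 190.5 ± 27.6 in testes (SD, n = 2), a ratio of 0.488 with an exact permutation p of 0.2 (adjusted 0.225). The number followed the depth within the sperm samples, since replicate 2, the deepest, listed the most and replicate 3, the shallowest, the fewest. Reduced by calculation to the same 366438 counts, sperm replicates 2, 3 and 4 kept 119, 50 and 81.1 members and the testes samples 150.0 and 121.8, a ratio of 0.614. At that equal depth the ratio was 0.545 for short lncRNA and 0.550 for all lncRNA, both lower than for the very long class.

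Among the lncRNA listed in a sample, very long ones were the more frequent in sperm. They made up 0.748%, 0.637%, 0.848% and 0.755% of the listed lncRNA in sperm replicates 1 to 4 and 0.499% and 0.502% in the testes, without overlap. The means were 0.747% ± 0.105 (SD, n = 3) and 0.500% ± 0.00216 (SD, n = 2), a ratio of 1.49 with an exact permutation p of 0.2 (adjusted 0.225). A long transcript collects more fragments at the same FPKM, and the median listed member had 11.5, 6.86, 15.7 and 7.42 counts in sperm and 14.9 and 14.2 in testes, while the median listed short lncRNA had 8, 2.5, 10 and 5 in sperm and 3 and 2.08 in testes. At equal depth the share was 0.791% ± 0.0600 in sperm against 0.698% ± 0.0144, a ratio of 1.13.

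**Figure D2:**
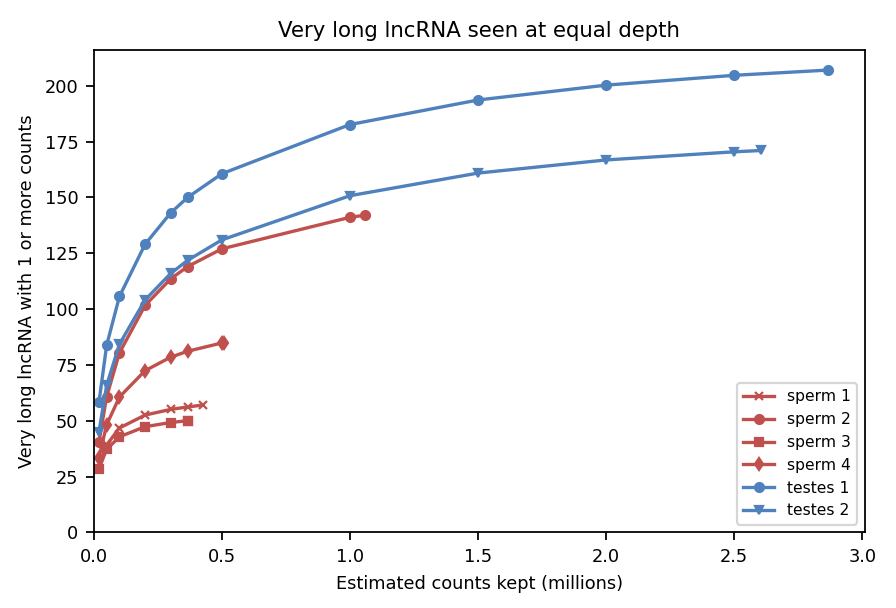
Number of very long lncRNA with at least 1 count (vertical axis) in each sample when its estimated counts are reduced to the depth on the horizontal axis (in units of 1000000), 1 curve per sample. At 366438 counts the testes samples show 150.0 and 121.8 members and sperm replicates 2, 3 and 4 show 119, 50 and 81.1.

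A small core of members was present throughout. Of the 263 members 22 were listed in all 6 samples, and these held 67.2%, 68.7%, 68.6% and 70.5% of the very long counts in sperm replicates 1 to 4 and 53.6% and 62.4% in the testes. In total 165 members were listed in at least 1 sperm sample and 236 in testes. Of the 162 listed in any of sperm replicates 2 to 4, 31 (19.1%) were in all 3, and of the 236 in testes 145 (61.4%) were in both samples. The corresponding values for short lncRNA were 13.3% and 50.6%. Detection in testes and in none of sperm replicates 2 to 4 was seen for 100 members. These were mostly weak, with a median of 4.21 counts in the better testes sample and a highest count of 100.5, and they held only 2.73% and 1.71% of the very long counts of the testes samples. The reverse, detection in sperm replicates 2 to 4 and not in testes, was seen for 26 members. These were mostly weak too, with a median of 3.61 counts in the highest sample. Together they held 10.9%, 16.2% and 14.6% of the very long counts in replicates 2, 3 and 4. Most of this lay on the 2 members that passed 100 counts. LTCONS_00013958 had 859, 394 and 553 counts there, and LTCONS_00040683 had 213, 138 and 159. Other models of the gene of LTCONS_00013958 had counts in testes. How many of all lncRNA showed either pattern was not counted.

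The counts were more concentrated in sperm than in testes. The leading member alone held 25.0%, 23.3%, 17.7% and 21.7% of the very long counts in sperm replicates 1 to 4 and 10.6% and 14.4% in the testes, and the 5 leading members held 60.8 to 65.3% in sperm and 39.2% and 50.2% in testes. It took 4 members to reach 50% of the counts in each sperm sample, and 8 and 5 in testes. For 90% it took 15, 26, 16 and 20 members in sperm and 44 and 32 in testes, a value that also moves with the number listed. The make-up differed between the groups as well. Sperm replicates 2 to 4 shared 70.4 to 82.6% of their very long counts pair by pair, counted as the sum over members of the smaller of both percentages, and the testes samples shared 77.1%, while a sperm and a testes sample shared 31.9 to 44.5%. Short lncRNA gave similar values, 70.1 to 78.4%, 79.5% and 35.2 to 38.0%. Known lncRNA held 57.4%, 67.8%, 54.6% and 63.0% of the very long counts in sperm and 44.4% and 42.5% in testes. Without the leading sperm member these became 43.1%, 58.0%, 44.8% and 52.8% against 43.3% and 41.4%.

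**Figure D3:**
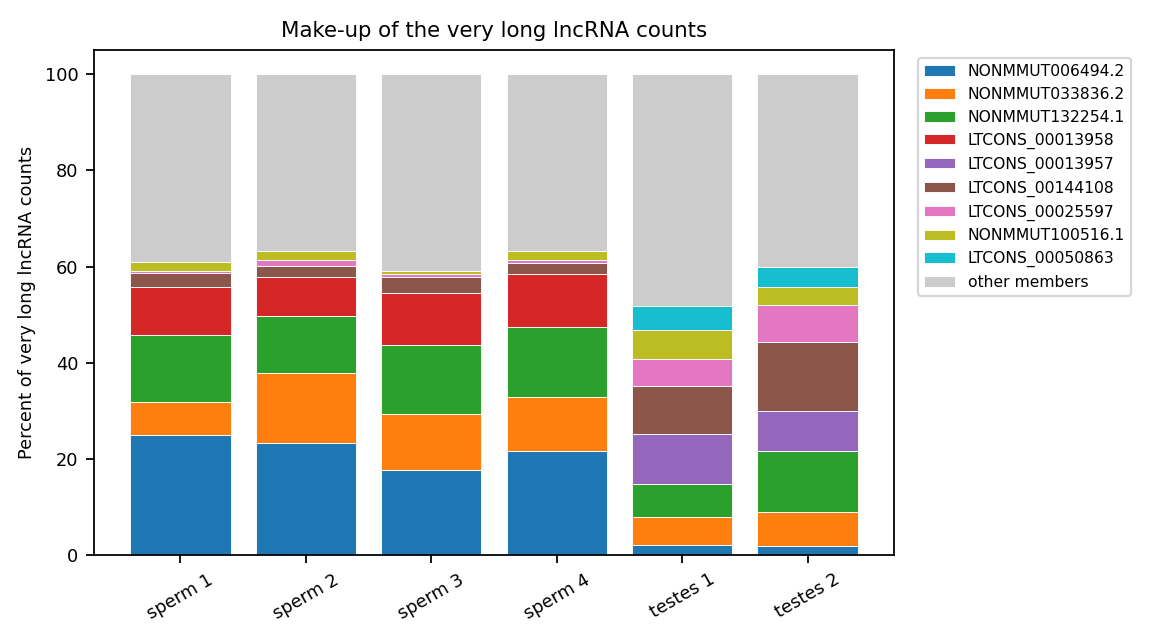
Percent of the very long lncRNA counts (vertical axis) taken by named members, stacked, with all other members in grey, 1 bar per sample. NONMMUT006494.2 takes 17.7 to 25.0% in sperm, and LTCONS_00013958 is seen in sperm where LTCONS_00013957 of the same gene is seen in testes.

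NONMMUT006494.2, a known lncRNA of 12080 bases from gene NONMMUG004182.2, was the most abundant very long lncRNA of sperm. It had 1045, 2498, 644 and 1082 estimated counts in sperm replicates 1 to 4 and 727 and 500 in the deeper testes samples. In FPKM it stood at 203, 195, 145 and 176 in sperm and at 20.9 and 15.9 in testes, so that the lowest sperm sample was several times above the higher testes sample. The means were 172 ± 24.9 (SD, n = 3) and 18.4 ± 3.59 (SD, n = 2), and edgeR gave a log2 fold change (log2FC, sperm over testes) of 2.98 ± 0.541 (SE, adjusted p = 5.05e-05). The gene also lists transcripts of 697 and 470 bases, which were weak, and the sum over the gene changed by 3.00 on the log2 scale (adjusted p = 9.09e-06 by edgeR). Without this single member the very long lncRNA held 0.741%, 0.779%, 0.817% and 0.769% of the counts in sperm and 1.23% and 1.04% in testes, and the ratio of the group means was 0.696 in place of 0.862. The member was picked for its level in sperm and was several times lower in testes, so the fall of this ratio follows from its own values.

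NONMMUT033836.2 and NONMMUT132254.1 followed, and both were abundant in each tissue. NONMMUT033836.2, of 13995 bases, had an FPKM of 48.1, 105, 82.7 and 78.5 in sperm replicates 1 to 4 and of 52.4 and 53.7 in testes. It was the leading one of the 7 transcripts of its gene in all 5 samples compared, with 55.0 to 71.8% of the gene's counts, but held 34.2% in sperm replicate 1, where NONMMUT033840.2 of 6517 bases led with 49.3%. Its log2FC of 0.46 (SE 0.500) did not pass the test (adjusted p = 0.533 by edgeR). NONMMUT132254.1, of 15863 bases, had an FPKM of 86.8, 75.5, 89.1 and 88.5 in sperm and of 53.3 and 84.8 in testes, and the value was -0.08 (SE 0.478, adjusted p = 0.923 by edgeR). NONMMUT018262.2, of 14903 bases, stood at 18.3, 25.8, 25.8 and 24.9 in sperm and 8.97 and 13.3 in testes. These groups did not overlap, but the change of 0.86 (SE 0.638) did not pass either (adjusted p = 0.339 by edgeR). LTCONS_00149361, of 15272 bases, ranged from 10.1 to 40.7 in sperm and had 6.65 and 21.5 in testes, with a log2FC of 0.17 ± 0.650 (SE, adjusted p = 0.887 by edgeR).

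Gene LXLOC_008373, known only from the study's assembly, had levels that overlapped between the tissues, with its counts assigned to different transcript models. The overlap rested on sperm replicate 4 alone, at 1145 ppm against 1144 ppm in testes replicate 2. Its 3 models are 21109, 21761 and 22667 bases long, and the gene as a whole stood at 972, 835, 1076 and 1145 ppm in sperm replicates 1 to 4 and at 1596 and 1144 ppm in testes. LTCONS_00013958, of 21761 bases, had 413, 859, 394 and 553 counts in sperm and 0 in both testes samples, where 3 counts would have been 1.05 and 1.15 ppm. It was the only member found in every sperm sample and in no testes sample. Against a floor of 3 counts over both testes samples it was at least 1705-fold higher in sperm (adjusted p = 6.76e-15 by edgeR). It entered the edgeR test through sperm samples alone, so this call is not independent of that choice. LTCONS_00013957, of 22667 bases, had 0, 8.1, 0 and 0 counts in sperm and 3797 and 2293 in testes, a log2FC of -8.42 ± 0.808 (SE, adjusted p = 1.40e-12 by edgeR). This model entered the test through testes samples alone. LTCONS_00013956, of 21109 bases, had 0, 15.7, 0 and 29.3 counts against 778 and 688, a log2FC of -3.73 (adjusted p = 0.00150 by edgeR).

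As a share of the gene's counts LTCONS_00013958 held 95.0 to 100% in the 4 sperm samples and 0% in testes, where LTCONS_00013957 held 83.0% and 76.9% and LTCONS_00013956 the rest. The sum over the gene did not pass the test, with a log2FC of -0.65 ± 0.461 (SE, adjusted p = 0.312 by edgeR). Which bases set the 3 models apart is not known here, and how the counting program divided reads among them was not tested. Among 16 member genes with at least 2 transcripts and 10 counts in each of the 5 samples, LXLOC_008373 was the only one in which 1 transcript led all 3 sperm samples and another led both testes samples. In 8 of the 16 the same transcript led in all 5 samples, and in 7 the leading transcript varied within a group.

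LXLOC_047153 showed how such a division can vary between samples of a group. Its models LTCONS_00081094, of 14106 bases, and LTCONS_00081092, of 13987 bases, took turns from sample to sample. LTCONS_00081094 had 0, 438, 0 and 243 counts in sperm replicates 1 to 4 and 103 and 0 in the testes, and LTCONS_00081092 had 370, 4.13, 131 and 0 in sperm and 0 and 115 in testes. LTCONS_00081094 alone was called higher in sperm (log2FC 4.07 ± 1.10 SE, adjusted p = 0.00973 by edgeR) although its groups overlapped, and the call did not hold in 6 of 14 alternative settings, among them without sperm replicate 2 (0.165) and with all 4 sperm samples (0.212). The gene as a whole had 871, 418, 357 and 478 ppm in sperm and 35.9 and 44.1 ppm in testes. The sum over the gene had a log2FC of 3.14 ± 0.682 (SE, adjusted p = 4.61e-04 by edgeR), with each of the 4 sperm samples above both testes samples.

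LTCONS_00040683 and gene LXLOC_028368 were the other very long lncRNA higher in sperm. LTCONS_00040683, of 10839 bases and the only transcript of its gene, had 0, 213, 138 and 159 counts in the 4 sperm samples and 0 in both testes samples. It was at least 481-fold higher in sperm replicates 2 to 4 than a floor of 3 counts over both testes samples (adjusted p = 1.19e-09 by edgeR), but at 0 in sperm replicate 1, where 3 counts would have been 7.07 ppm. It entered the edgeR test through sperm samples alone. The pair LTCONS_00048467 and LTCONS_00048458 of gene LXLOC_028368, of 12176 and 12180 bases, moved together. LTCONS_00048467 had 97.8, 217, 76.5 and 140 counts in sperm and 40.3 and 2.31 in testes, and its FPKM was 18.8 ± 3.20 (SD, n = 3) against 0.61 ± 0.764 (SD, n = 2). Its log2FC was 4.81 ± 0.976 (SE, adjusted p = 3.28e-04 by edgeR), which became 7.60 without testes replicate 1 and 3.62 without testes replicate 2, with the call kept in both. LTCONS_00048458 had 28.9, 71.1, 24.8 and 41.3 counts in sperm and 11.2 and 0.83 in testes, with a log2FC of 4.86 ± 1.27 (SE, adjusted p = 0.00717 by edgeR), a call that was lost without sperm replicate 2 (0.0623) or without testes replicate 2 (0.307) and whose log2FC was 6.77 without testes replicate 1. Another model of this gene, LTCONS_00048456 of 13860 bases, had 24 counts in testes replicate 1 alone. The sum over the gene rose by 4.40 (adjusted p = 3.74e-05 by edgeR).

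The most abundant very long lncRNA of testes was LTCONS_00144108, of 11584 bases, from gene LXLOC_083971. It had an FPKM of 25.8, 19.9, 27.8 and 18.9 in sperm replicates 1 to 4 and of 106 and 131 in testes. Its log2FC was -2.77 ± 0.521 (SE, adjusted p = 9.16e-05 by edgeR), and without sperm replicate 4 the adjusted p was 0.0671. LTCONS_00144107, the second model of this gene, changed by -2.73 (adjusted p = 0.0279 by edgeR) and the gene sum by -2.70 (adjusted p = 1.97e-05 by edgeR), so both models and the gene as a whole fell. LTCONS_00025597, of 13708 bases and the only listed transcript of LXLOC_015072, had 12, 125, 23 and 31 counts in sperm and 2012 and 2094 in testes. In FPKM this was 2.06, 8.59, 4.58 and 4.43 against 51.1 and 58.5, and the log2FC was -3.46 ± 0.617 (SE, adjusted p = 3.73e-05 by edgeR).

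Several members with counts in both testes samples were nearly absent from sperm. LTCONS_00040032 and LTCONS_00145632 among them were weak in testes as well, at 33.9 to 52.1 counts. None of the members called here reached an FPKM of 1 in a sperm sample, so all entered the edgeR test through the testes samples alone. LTCONS_00050863, of 23096 bases, had 9.83 counts in sperm replicate 2 and 0 in the other sperm samples, against 1777 and 1172 in testes (log2FC -7.11 ± 0.869 SE, adjusted p = 3.83e-09 by edgeR). A second model of its gene LXLOC_029831, LTCONS_00050864 of 22351 bases, remained at 35.8, 4.42, 5 and 27.9 counts in sperm against 241 and 154, and the gene sum fell by 4.32 on the log2 scale (adjusted p = 1.08e-07 by edgeR). Another model of this gene, LTCONS_00050865 of 26226 bases, had 19.9 counts in sperm replicate 2 alone. LTCONS_00070723, of 21135 bases, had 5.56 counts in sperm replicate 2 alone of the sperm samples and 385 and 259 in testes (log2FC -5.62 ± 1.13 SE, adjusted p = 2.71e-04 by edgeR). NONMMUT031173.2, of 14867 bases, was at 0 in all 4 sperm samples and at 35.0 and 26.6 ppm in testes. It was at least 20.0-fold lower in sperm against a floor of 3 counts over the sperm samples tested (adjusted p = 0.00524 by edgeR), and without sperm replicate 2 the adjusted p was 0.0654. Shorter transcripts of its gene NONMMUG019198.2 had counts in every sperm sample. The gene sum fell by 2.84 on the log2 scale (adjusted p = 0.0141 by edgeR). LTCONS_00040032, of 11489 bases, was likewise at 0 in sperm and at 16.6 and 20.0 ppm in testes, at least 11.7-fold lower (adjusted p = 0.0222 by edgeR), a call lost without sperm replicate 2 (0.0851) or 4 (0.0912). Another model of its gene LXLOC_023620, LTCONS_00040015 of 10786 bases, had 14.85 counts in sperm replicate 2 alone. The gene sum did not pass (log2FC -1.79, adjusted p = 0.358 by edgeR). LTCONS_00145632, of 11853 bases, had 1.21 counts in sperm replicate 2 against 46.4 and 33.9 in testes and only just passed (adjusted p = 0.0461 by edgeR), and it did not pass in 6 of 12 alternative settings, among them without sperm replicate 2 (0.0851) or 4 (0.156). The sum over its gene LXLOC_084940 did not pass either (log2FC -2.51, adjusted p = 0.216 by edgeR).

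The size of some changes rested on the few counts of sperm replicate 2. Without that sample LTCONS_00050863 and LTCONS_00070723 were at 0 in the sperm samples left, as was LTCONS_00013957, so no fold change is given for this setting. Without sperm replicate 4 the log2FC of LTCONS_00013957, LTCONS_00050863 and LTCONS_00070723 was -7.72, -6.38 and -4.91. The edgeR calls of all 3 were kept in both settings.

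NONMMUT100516.1 and LTCONS_00083791 were less settled. NONMMUT100516.1, of 14989 bases, had an FPKM of 12.3, 12.6, 4.31 and 12.9 in sperm replicates 1 to 4 and of 51.2 and 26.2 in testes. All sperm samples lay below testes and the log2FC was -2.11 ± 0.617 (SE, adjusted p = 0.0195 by edgeR), but the call was lost in 9 of 14 alternative settings, among them without sperm replicate 2 (0.0851), 3 (0.0687) or 4 (0.149) or testes replicate 1 (0.118). LTCONS_00083791, of 12575 bases, had an FPKM of 59.1, 11.7, 47.5 and 0 in sperm and of 21.4 and 35.1 in testes, and the samples of sperm spread across those of testes (log2FC -1.05 ± 0.763 SE, adjusted p = 0.325 by edgeR, and 0.0170 without sperm replicate 3).

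The longest members found in all 6 samples were at low levels per base. LTCONS_00094659, of 70305 bases, had 135, 159, 82.9 and 152 counts in sperm replicates 1 to 4 and 1124 and 284 in the testes. In FPKM it stood at 4.49, 2.12, 3.21 and 4.22 in sperm and 5.54 and 1.54 in testes, so the sperm samples lay between the testes samples, and the log2FC was -0.38 ± 0.655 (SE, adjusted p = 0.713 by edgeR). NONMMUT018579.2, of 52401 bases, had 1.20, 0.75, 1.23 and 1.53 in sperm and 3.73 and 1.72 in testes (log2FC -1.49 ± 0.788 SE, adjusted p = 0.165 by edgeR). LTCONS_00166010, of 39464 bases, had 1.30, 1.49, 0.48 and 1.09 in sperm and 6.49 and 3.54 in testes. It was called lower in sperm (log2FC -2.42 ± 0.786 SE, adjusted p = 0.0362 by edgeR), and in 8 of 14 alternative settings it was not, among them without sperm replicate 2 (0.0851) or 4 (0.172) or testes replicate 1 (0.330). The longest transcript of all, LTCONS_00094660 of 101536 bases, had 11.1 counts in testes replicate 1 and was listed in no other sample.

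**Figure D4:**
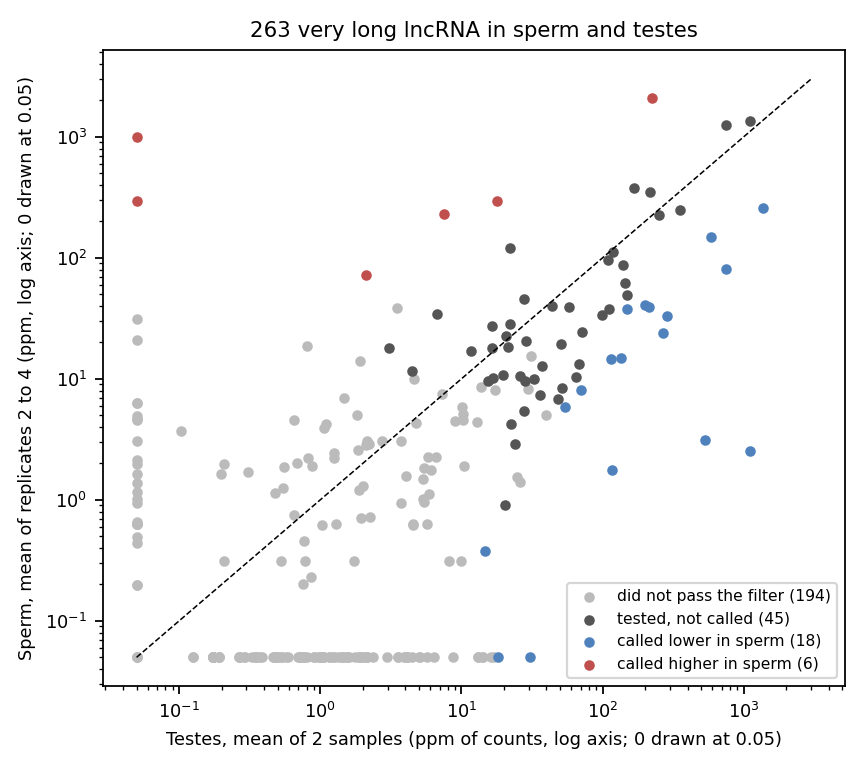
Mean level of each of the 263 members in sperm replicates 2 to 4 (vertical axis) against testes (horizontal axis), in ppm of estimated counts on log axes with 0 drawn at 0.05; colours show the edgeR call and the dashed line marks equal levels. The 6 members called higher in sperm and the 18 called lower lie away from the line, and 194 members, in pale grey, were below the filter.

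Across the members tested, more were lower than higher in sperm, as among all transcripts. Of the 263 members 69 passed the filter (an FPKM of 1 or above in at least 2 of the 5 samples) and 194 did not. LTCONS_00013958 and LTCONS_00040683 passed it through sperm samples alone, and LTCONS_00013957 and the members nearly absent from sperm through testes samples alone. Their calls are thus not independent of the filter. A transcript was called at an adjusted p below 0.05 and a fold change above 2 in edgeR. By this rule 6 of the 69 (8.70%) were higher in sperm and 18 (26.1%) lower, beside 4.48% and 19.3% of all transcripts tested, 4.39% and 18.5% of all lncRNA and 3.82% and 16.6% of the short lncRNA. The median log2 fold change was -1.52 over the 69 members and -1.30 over all lncRNA as over all transcripts tested. This common shift depends on the scaling, as it was -1.12 for all transcripts with library size alone and the members then stood at -1.34. The order of both medians depended on the setting. The members lay above all transcripts tested with limma on log2(FPKM + 1), at -0.97 against -1.13, with limma on log2(FPKM + 0.1), at -2.01 against -2.53, without a filter, at -1.68 against -1.76, and without sperm replicate 2, at -1.82 against -2.64. All 18 members called lower and 5 of the 6 called higher had groups that did not overlap. Leaving out 1 library changed the number of lower calls among the members and among all lncRNA alike in direction, except without sperm replicate 3. Of the members 7 (10.9%) were lower without sperm replicate 2, 8 (12.3%) without sperm replicate 4, 5 (9.62%) without testes replicate 1 and 8 (14.8%) without testes replicate 2, beside 2.41%, 2.54%, 4.18% and 3.15% of all lncRNA. Without sperm replicate 3 they were 20 (31.3%), beside 10.1% of all lncRNA. Higher calls did not move alike. Among the members they numbered 4, 7, 6, 6 and 5 without sperm replicates 2, 3 and 4 and testes replicates 1 and 2. These were 6.25%, 10.9%, 9.23%, 11.5% and 9.26%, beside 1.17%, 6.86%, 1.89%, 1.66% and 1.41% of all lncRNA.

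The filter itself treats lengths unequally. An FPKM of 1 asks for many more fragments of a very long than of a short transcript, and the members tested had a median of 390 counts over the 5 samples, against 38.1 for all lncRNA and 17.9 for short lncRNA, so their calls rest on more counts. With a filter on counts in its place (at least 10 summed over the 5 samples) 155 members were tested. Of these 8 (5.16%) were called higher and 9 (5.81%) lower, beside 2.90% and 3.64% of all transcripts, 3.10% and 3.96% of all lncRNA and 2.71% and 3.18% of the short lncRNA. The median log2 fold change was then -1.15 for the members, -1.18 for all transcripts, -1.12 for all lncRNA and -1.03 for short lncRNA. The 2 members called higher with this filter only, LTCONS_00056635 and NONMMUT128826.1, named here after their values were seen, had all their counts in sperm replicate 3, 22.9 and 34.1. Without sperm replicate 2 this fit called 0 members lower and 1 higher, where 52 were lower and 7 higher at an unadjusted p below 0.05 in edgeR, and over all 19038 lncRNA tested it called 1 lower and 6 higher, so nearly all calls were lost and not those of the members alone. Without sperm replicate 3 it called 24 members (15.8%) lower, beside 8.44% of all lncRNA.

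**Figure D5:**
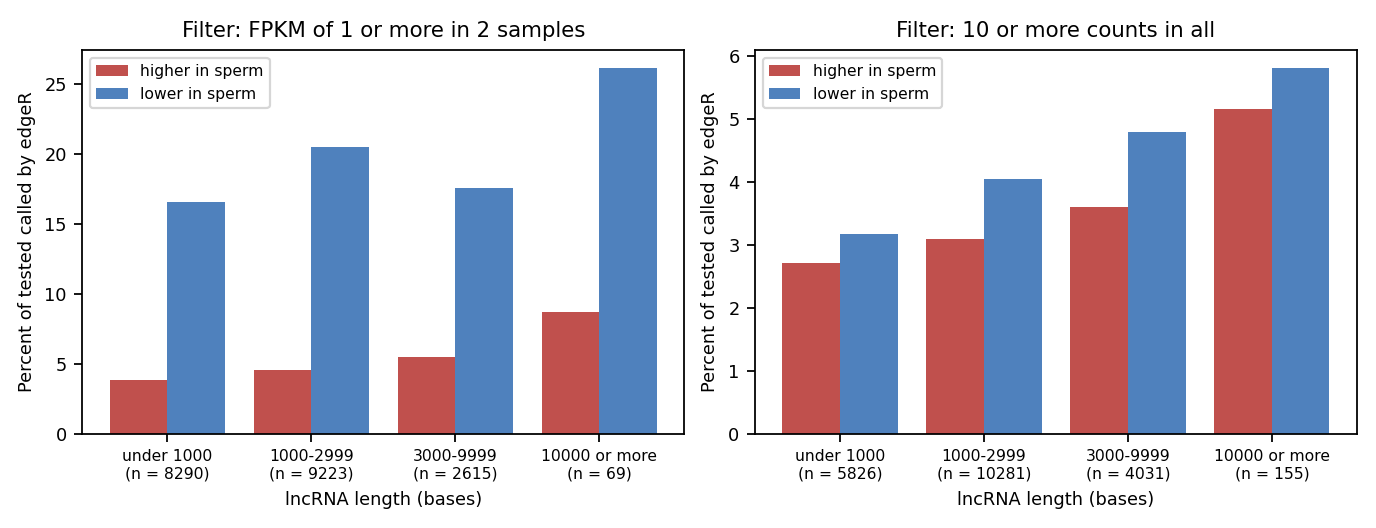
Percent of the transcripts tested that edgeR called higher (red) or lower (blue) in sperm, by lncRNA length class in bases, with the filter on FPKM (left) and on counts (right) and the number tested under each class. Very long lncRNA show 8.70% higher and 26.1% lower of 69 on the left and 5.16% and 5.81% of 155 on the right.

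Counted without a model, 81 members (30.8%) had every one of sperm replicates 2 to 4 below both testes samples in ppm and 9 (3.42%) had all of them above. Over all lncRNA these shares were 31.3% and 2.74%, so the members did not stand apart. Summed per gene, 83 of the genes that hold a member were tested, of which 5 rose and 16 fell by edgeR. Of all 18883 lncRNA genes 788 (4.17%) rose and 3235 (17.1%) fell. Among the 5 was NONMMUG056839.1 (log2FC 3.94, adjusted p = 0.0143 by edgeR). This gene stood at 92.8, 183, 0 and 28.0 ppm in sperm replicates 1 to 4 and at 4.63 and 4.74 ppm in testes, so the groups overlapped. Its member held 1.91% of the gene's counts in sperm replicate 2 and 0% in sperm replicate 4, so shorter transcripts carried this rise. With the filter on counts 151 genes that hold a member were tested, of which 6 rose and 7 fell by edgeR, so the larger number of lower calls depended on the filter. Of all 18600 lncRNA genes 660 (3.55%) then rose and 798 (4.29%) fell. In both fits the shares among the genes that hold a member were close to those of all lncRNA genes.

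The mean level per base over the whole class overlapped between the tissues, and this too rested on 1 member. The mean FPKM over all 263 members, with unlisted ones at 0, was 2.59, 2.69, 2.64 and 2.52 in the 4 sperm samples, against 2.93 and 2.64 in testes. The groups overlapped, at 2.61 ± 0.0865 (SD, n = 3) and 2.79 ± 0.207 (SD, n = 2), a ratio of 0.937 with an exact permutation p of 0.4 (adjusted 0.4). Without NONMMUT006494.2 it was 1.83, 1.95, 2.09 and 1.86 in sperm against 2.87 and 2.59 in testes, a ratio of 0.721 without overlap. This member was picked for its level in sperm and was lower in testes, so the lower ratio follows from its own values. As the mean of log2(FPKM + 1) and of log2(FPKM + 0.1) over all members the ratio was 0.842 and 0.593. Short lncRNA had mean FPKM of 13.9, 17.8, 16.6 and 18.2 in sperm and 15.5 and 15.9 in testes. In the 73 genes that hold both a member and a shorter listed lncRNA, the members held 66.9%, 75.9%, 74.3% and 71.2% of the gene's counts summed over these genes in sperm and 70.5% and 68.1% in testes. The means of 73.8% ± 2.36 (SD, n = 3) and 69.3% ± 1.74 (SD, n = 2) had an exact permutation p of 0.2 (adjusted 0.225), with sperm replicate 1 below both testes samples. This sum is led by a few abundant genes. Taken gene by gene, over genes with at least 10 counts in a sample, the median share on the members was 11.9%, 50.6%, 79.4% and 44.9% over 19, 29, 15 and 17 genes in sperm and 81.6% and 81.3% over 53 and 40 genes in testes. These medians run over different genes in each sample and were not tested.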

How the data were processed

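RNA of 4 sperm and 2 testes samples was sequenced after rRNA depletion. Groups and replicate numbers were taken from the sample titles. The authors removed adaptors, empty and low-quality reads. Their methods name SOAPaligner/SOAP2 as the aligner, while the submitters' processing notes list HISAT and mm10; the counting program is not given in the sources used here. Per the file headers, the deposited tables hold an estimated count per transcript (expected count), which the authors did not scale for depth, and FPKM computed by the authors, with the transcript length. Transcripts not listed in a sample were taken as 0. The members and gene lists were chosen with earlier results of these data known.

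Shares are sums of estimated counts over the sample total, which ran from 366455 to 2866856. Intervals are Wilson 95% intervals and floors are 3 counts, and both cover counting error only. Measures with 1 value a sample were tested by two-sided exact permutation over samples, with Benjamini-Hochberg adjustment over 9 tests. The smallest p is 0.2 for 3 against 2 samples and 0.133 for 4 against 2, so none can reach 0.05. Sperm pools and testes came from the same mice, and the labels give no batch. P-values then measure the spread between these samples. No replicates were merged, since replicates differed by a chi-square of 14.3 to 24.8 per degree of freedom.

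Counts were rounded and tested across all transcripts with edgeR 4.0.16 (quasi-likelihood, TMM factors, R 4.3.3), after a filter on FPKM (at least 1 in 2 of 5 samples) or on summed counts (at least 10). The design foresaw limma had the tables held FPKM alone. SE were derived from the F statistic. The edgeR fit was run on simulated counts. Its pass mark was set at a spread between replicates below that of these data (common dispersion 0.606). It thus does not show how reliable the calls are here. Members are named by rule: the 8 with the highest mean count in sperm replicates 2 to 4, the 8 highest in testes, the 6 with the largest change in each direction among called members whose groups do not overlap, the 3 longest listed in all 6 samples, and those in all 4 sperm and no testes samples. Some other models of the same genes, but not all, are given beside them. Alternatives used DESeq2 1.42.0, limma 3.58.1, other scalings, filters, length limits and left-out replicates. Other steps used Python 3.11.15 with numpy 2.4.6, pandas 2.3.3 and scipy 1.17.1. No lncRNA sequence or position was used here.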

Additional observations from a re-analysis of the deposited data

Results flagged for a closer look

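Among 32 measures over the 4 sperm samples, 9 had 1 sample far from the other 3 by Dixon's test at 95%. Chance gives this in about 1 of 20 groups, and the measures share samples. Sperm replicate 3 was low in the very long mRNA share (0.191%) and in the FPKM of NONMMUT100516.1 (4.31). Sperm replicate 2 was low in NONMMUT132254.1 (FPKM 75.5), and sperm replicate 1 in NONMMUT018262.2 (18.3). Sperm replicate 4 was high in LTCONS_00048458 (6.66). In 4 members absent from the other 3 sperm samples, replicate 2, the deepest, was the only one with a value: LTCONS_00013957 (0.34), LTCONS_00050863 (0.40), LTCONS_00070723 (0.25) and LTCONS_00145632 (0.10). Where the other 3 samples are at 0 any value is flagged, so the rate of 1 of 20 does not hold for these 4.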

How the results depend on the processing

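None of the per-sample tests can pass 0.05 in this design, so a value was taken as moved where it shifted by more than 1 SD of the sperm samples. The ratio of the very long share, 0.862, was 0.690 and 0.675 with length limits of 8000 and 15000 bases, 0.837 over lncRNA counts alone, 0.918 without gene NONMMUG018329.2 and 0.795 to 0.940 with 1 replicate left out. It reversed to 1.04 without the 10 transcripts of highest FPKM. Added after the data were seen, it was 0.696 without NONMMUT006494.2, 0.689 without this and gene LXLOC_008373, and 0.742 without this and NONMMUG018329.2. The short share ratio, 1.10, was 1.03 with all 4 sperm samples and 1.42 for lncRNA under 500 bases, and reversed to 0.844 without NONMMUG018329.2 and 0.892 without the 10 highest. The log2 ratio of both, -0.35, was -0.25 with all 4 sperm samples, -0.67 and -0.70 at 8000 and 15000 bases, -0.71 under 500 bases, -0.25 from summed FPKM, -0.47 to -0.22 with 1 replicate left out, and -0.66, -0.67 and -0.18 in the same 3 additions; it reversed to 0.13 and 0.22 without the gene and without the 10 highest.

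The ratio of the share of listed lncRNA, 1.49, was 1.22 with fewer than 3 counts set to 0 and 1.13 at equal depth. The mean FPKM ratio, 0.937, was 0.658 and 0.765 at 8000 and 15000 bases, 0.842 and 0.593 as the mean of log2(FPKM + 1) and log2(FPKM + 0.1), 0.721 without NONMMUT006494.2 (added), and 0.890 to 0.989 with 1 replicate left out. The mRNA log2 ratio, 0.16, was 0.060 to 0.26 with 1 left out.

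Members called lower, 18, were 9 with limma on log2(FPKM + 0.1), 8 without a filter, 9 with the count filter, 8 at an adjusted p below 0.01, and 5 to 20 with 1 replicate left out (higher, 4 to 7). From 8000 bases 13 were higher and 34 lower, from 15000 bases 1 and 7. With the count filter, leaving out 1 replicate gave 1 to 12 higher and 0 to 24 lower; the lowest values came without sperm replicate 2. The labels number the replicates of both groups, but nothing ties sperm and testes numbers, and with 2 testes samples the correlation of deviations could not show a pairing. With the number as a replicate block edgeR called 5 higher and 12 lower. For 23 named members 255 of 310 alternative values kept direction and side of the threshold, 38 lost the call, 1 gained it and 16 changed sign without a call; no call changed direction. The cause of these shifts was not tested. Depth limits members under 3 counts.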

Other observations

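A pair of other very long lncRNA above 50000 bases, named here after their values were seen, was unevenly present. LTCONS_00149384, of 85165 bases, had 28.9, 155, 0 and 0 estimated counts in sperm replicates 1 to 4 and 845 and 9.39 in the testes samples, so the testes samples differed as widely as the sperm samples. NONMMUT064303.2, of 83437 bases, had 0, 0, 4.24 and 52.1 in sperm and 256 and 343 in testes. In its gene NONMMUG039685.2 a transcript of 4731 bases led in sperm replicates 2 and 3 with 93.2% and 80.7% of the gene's counts, while NONMMUT064303.2 led in sperm replicate 4 with 100% and in testes with 82.2% and 81.8%. Over the 155 members tested with the count filter, Spearman's rho between length and log2 fold change was -0.156, and over 20293 lncRNA it was -0.0376, which describes transcripts that share libraries and genes and has no p.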
